A study of Mus musculus with 42 samples.

Results

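The libraries described here came from tibialis anterior, a fast hindlimb muscle, of transgenic mice that overexpress human Sesn1 in skeletal muscle (Sesn1SkM-Tg), and the comparison was of 3 libraries from the limb immobilized for 3 days with 4 libraries from mice that were not immobilized (basal). These 7 libraries of the first sequencing set were chosen from the 42 libraries of the series by genotype, treatment and set, and every one of the 13809 genes in the expression table was a member, of which 13705 reached a normalized value of 1 in at least 1 library and were tested. All mice were 4-month-old males on the C57BL/6J background. The human Sesn1 coding sequence was driven by the MCK promoter, which is active in muscle fibers, in a line made by pronuclear injection. In the immobilized group the right hindlimb had been fixed with rigid plastic sticks under an adhesive bandage, whereas the basal muscles came from other mice with free limbs. The same set held wild-type (WT) libraries, 4 basal and 3 immobilized. The study took non-transgenic littermates as controls of each transgenic line, but the labels do not say of which line these WT mice were littermates. The set also held libraries of a second line (Sesn2SkM-Tg), in which an MCK-driven tTA switches on a Tet-regulated Sesn2 transgene, 4 basal and 4 immobilized. The WT and Sesn2SkM-Tg libraries were used to ask whether the response to immobilization differed between genotypes.

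Sestrins are stress-induced proteins that hold back the growth kinase complex mTORC1 when leucine is scarce, by binding the GATOR2 complex, and they also act on mTORC2 and AMPK. When a muscle stops bearing load it loses protein faster than it makes it. The ubiquitin-proteasome system, fed by the muscle ligases atrogin-1 (Fbxo32) and MuRF1 (Trim63), and the autophagy-lysosome pathway carry out much of that breakdown, and the transcription factors of the FoxO family, which AKT keeps inactive, switch on many of their genes.

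The values were normalized expression values on a linear scale, deposited without read counts, so the depth of each library is unknown and the number of libraries limits the precision. Differences are given as log2 of value + 1, immobilized minus basal, with the standard error (SE) of the limma model, and they understate the change of genes with low values. A gene was called when its limma adjusted p was under 0.05 and its log2 difference was at least 0.25 in size. The 4 basal libraries correlated with each other at 0.981 to 0.989 (Pearson's r of log2 values over genes) and the 3 immobilized libraries at 0.958 to 0.976. Immobilized replicate 3 was the farthest from the basal libraries, with r of 0.906 to 0.920, against 0.940 to 0.950 for replicate 2 and 0.961 to 0.969 for replicate 1. The values of a library summed to 1007802 to 1062504 in the basal group and to 959641, 794881 and 766464 in immobilized replicates 1, 2 and 3.

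The targeted gene checked the labels. Sesn1 (chr10:41809935-41908424, plus strand, GRCm38) was at 52.9, 77.6, 65.4 and 41.6 in basal replicates 1 to 4 and at 51.1, 46.9 and 23.0 in immobilized replicates 1 to 3, whereas WT basal libraries held 14.98 to 22.1 and WT immobilized libraries 12.4 to 15.2. Every transgenic library thus lay above every WT library, although the table gives 1 value per gene and does not tell human transgene reads from those of the mouse gene. The values of the immobilized and basal transgenic groups overlapped, the log2 difference was -0.59 ± 0.24 and the limma adjusted p was 0.0598, so Sesn1 was not called. Without basal replicate 4, immobilized replicate 1 or immobilized replicate 2 it was called, with log2 differences of -0.75, -0.80 and -0.74 and limma adjusted p of 0.0261, 0.0211 and 0.0490. Sesn1 was also called after median centring (-0.63, limma adjusted p = 0.0432) and in a fit with the replicate number as a block. Sesn2 (0.21 ± 0.22, limma adjusted p = 0.471) and Sesn3 (-0.68 ± 0.29, limma adjusted p = 0.06999) were not called either, at mean values of 3.27 ± 0.507 (SD, n = 4) and 3.65 ± 0.828 (SD, n = 4) in basal muscle. Sesn3 was called without basal replicate 3 (-0.82, limma adjusted p = 0.0445) and without immobilized replicate 2 (-0.89, limma adjusted p = 0.0464), and after median centring (-0.72, limma adjusted p = 0.0484) or quantile normalization (-0.95, limma adjusted p = 0.0132).

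Immobilization changed much of the transcriptome of Sesn1SkM-Tg muscle. Of the 13705 genes tested, 2489 rose (18.2%) and 2267 fell (16.5%), and 34.7% were called in all. The values of the groups did not overlap for 4274 of the 4756 called genes, and over all tested genes 41.5% did not overlap (19.9% higher and 21.6% lower). The log2 difference was at least 1 for 884 genes that rose and at most -1 for 415 that fell, beside a median over all genes of -0.0088. The size of the response differed between the immobilized libraries, since the genes that rose were a median of 0.57, 0.89 and 1.09 above the basal mean in replicates 1, 2 and 3, and those that fell were at -0.53, -0.69 and -0.82. Without replicate 3 the count was 2794 (1433 higher and 1361 lower), and 2721 of those genes were among the 4756. When every library was scaled to the same sum, the median shifted by about 0.25 and 82.6% of called genes were higher (4138 against 874), compared with 52.3% on the deposited scale, so directions below are on the deposited scale and small differences depend on it.

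The 12 largest rises included 3 genes of the sarcomere's Z-disc or its load signalling (Csrp3, Ankrd2 and Ankrd1), Mustn1, the chaperone gene Hspb7, the metallothionein gene Mt2, the macrophage genes Cd68 and Ccr2, and the secreted inhibitors Serpina3n and Timp1. Csrp3, or muscle LIM protein, a Z-disc protein linked to stretch sensing (chr7:48830398-48848033, minus strand, GRCm38), was at 9.60, 10.99, 1.80 and 51.1 in basal replicates 1 to 4 and at 273, 169 and 913 in immobilized replicates 1 to 3. Its groups did not overlap, with the highest basal value in replicate 4, and its log2 difference of 4.90 ± 0.79 was the largest rise of all genes (limma adjusted p = 0.00015). Mustn1, a small nuclear protein of muscle and bone repair (chr14:30879200-30881610, plus strand), went from 43.5, 40.3, 50.6 and 29.4 to 601, 689 and 979 in the same order, with a log2 difference of 4.17 ± 0.48 (limma adjusted p = 5.85e-06). All 3 immobilized libraries stood far above all 4 basal ones. The ankyrin repeat protein Ankrd2, which moves between Z-disc region and nucleus, was at 24.6, 24.0, 9.59 and 116 in basal and 470.0, 251 and 1115 in immobilized muscle, a difference of 4.10 ± 0.74 (limma adjusted p = 0.000364). Its relative Ankrd1 (CARP) was at 25.03, 21.6, 30.6 and 6.17 and then at 189, 173 and 869, with a difference of 4.00 ± 0.94 (limma adjusted p = 0.00278). Neither gene's groups overlapped, and both were highest in immobilized replicate 3.

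**Figure D1:**
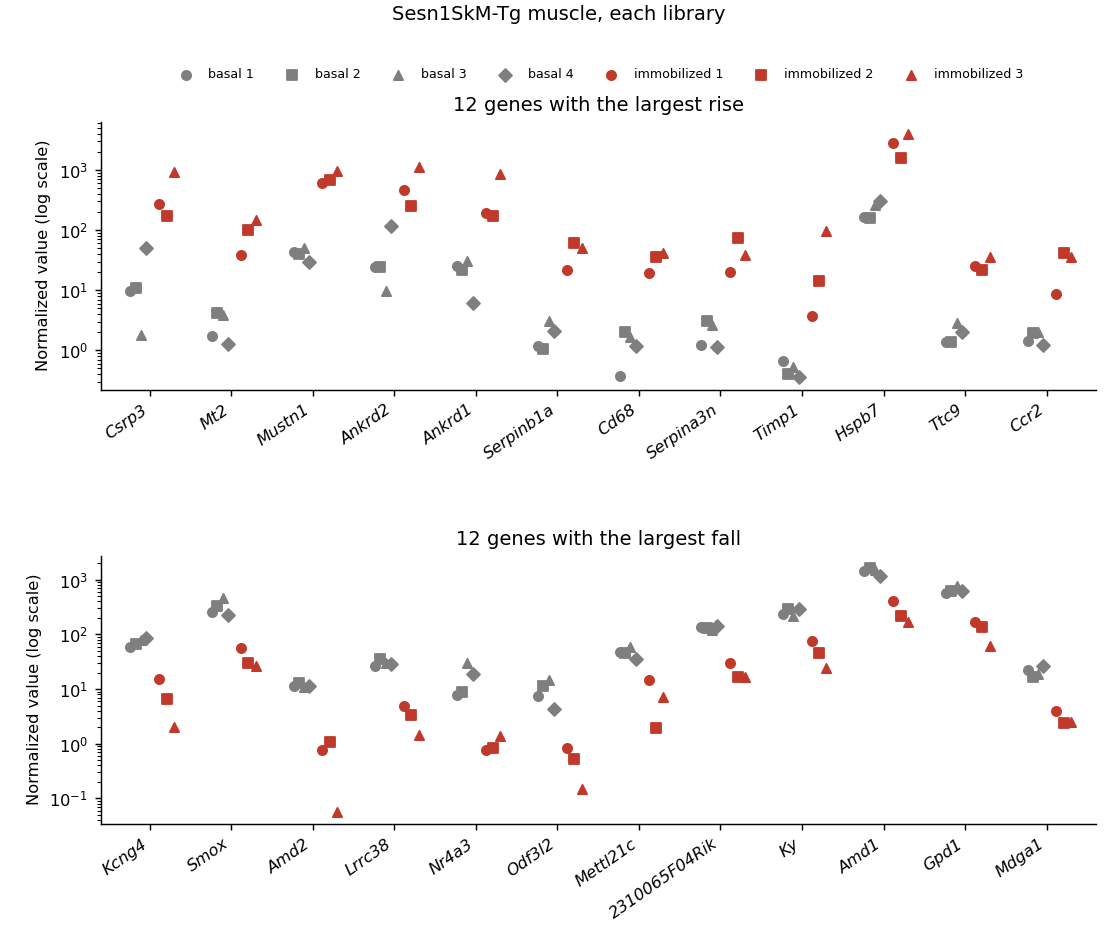
Normalized value (log axis) in each Sesn1SkM-Tg library of the 12 called genes with the largest rise (top) and the 12 with the largest fall (bottom); grey symbols are the 4 basal and red symbols the 3 immobilized libraries, with 1 marker shape per replicate number. In each of the 24 genes every immobilized library lies on the same side of every basal library.

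Of the 27 tested Z-disc and load-responsive genes, 13 rose and 5 fell (48.1% and 18.5%, beside 18.2% and 16.5% of all genes), with a median of 0.68. Fhl1, a LIM protein of the sarcomere, rose from 572, 609, 755 and 982 to 4684, 3447 and 5582 (2.65 ± 0.42, limma adjusted p = 0.000122). Myoz3, a calcineurin-binding Z-disc protein of fast fibers, fell from 62.1, 45.1, 40.1 and 55.8 to 16.7, 10.6 and 6.03 (-2.17 ± 0.27, limma adjusted p = 1.73e-05). Thus genes of the same structure moved in both directions, without overlap of groups in either example. The number that fell was 3 without immobilized replicate 2, immobilized replicate 3 or basal replicate 4, and 11 to 14 rose when any 1 immobilized library was left out.

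The 250 bases before the start of Ankrd1 are shown because this gene was among the largest rises and its promoter is known for M-CAT elements, the sites of TEAD factors. The sequence is from RefSeq (GRCm38.p6), chr19:36119845-36120094, minus strand, 5′ to 3′, with matches to the M-CAT core CATTCC (either strand) in capitals.
Ankrd1: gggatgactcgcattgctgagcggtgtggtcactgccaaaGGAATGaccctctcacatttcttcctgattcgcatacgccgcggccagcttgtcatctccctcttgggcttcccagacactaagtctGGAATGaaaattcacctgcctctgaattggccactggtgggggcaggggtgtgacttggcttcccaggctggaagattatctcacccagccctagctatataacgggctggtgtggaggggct
Both matches lay on the opposite strand, with first bases at -210 and -123 from the start. CATTCC was found in 12.6% of the 32851 promoters in the sequence table, searched over the 250 bases before each start. Of the 26 promoters of Z-disc and load-responsive genes in that table, 4 held the motif (15.4%). Counted by gene, these were 4 of 19.

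Small heat shock proteins, chaperones that bind unfolded sarcomere proteins, rose as well. Of 8 tested genes of this list, which included the co-chaperone gene Bag3, 6 rose and 0 fell (75% higher, beside 18.2% of all genes). Their median was 1.17. Hspb7, a chaperone of muscle and heart that binds filamin C, was at 164, 157, 258 and 303 in basal and 2788, 1590.5 and 3992 in immobilized muscle, a difference of 3.62 ± 0.45 (limma adjusted p = 1.67e-05). Cryab, or αB-crystallin, went from 315, 288, 438 and 462 to 1054, 808 and 1317 (1.49 ± 0.38, limma adjusted p = 0.00477), and its groups did not overlap. Hspb1, which encodes HSP25, was at 76.7, 69.9, 144 and 121 and then 290.0, 135 and 723 (1.62 ± 0.41, limma adjusted p = 0.00488). Immobilized replicate 2 of Hspb1 lay within the basal range, and without replicate 3 the difference was 1.00 with a limma adjusted p of 0.0665.

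Among genes of the contractile apparatus 5 of 13 of the fast type fell (38.5%, beside 16.5% of all genes) and 4 of 10 of the slow type rose (40%, beside 18.2%). Among 13 fast sarcomere genes 1 rose and 5 fell, with a median of -0.45 that became 0.0077 under quantile normalization, where 2 fell, and the number that fell was 8 without immobilized replicate 1 and 3 without replicate 3. Myh4, the myosin heavy chain of the fastest (IIB) fibers, fell from 45547, 46137, 40306 and 38221 to 24794, 22079 and 16409 (-1.03 ± 0.30, limma adjusted p = 0.0108), a call that was lost without immobilized replicate 3 (limma adjusted p = 0.0677), under quantile normalization (-0.14, limma adjusted p = 0.729) and when only the compared groups were fitted (limma adjusted p = 0.0892). Mylk2, the kinase of skeletal myosin light chain, fell from 1065, 915, 971 and 949 to 427, 262 and 209 (-1.76 ± 0.20, limma adjusted p = 6.99e-06). Myosin binding protein Mybpc2 fell (-1.10 ± 0.19, limma adjusted p = 0.000322). Myh2, the myosin of IIA fibers, was at 194, 299.7, 57.8 and 952 in basal and 1047, 764 and 1685 in immobilized libraries (2.21 ± 0.81, limma adjusted p = 0.0381). Its groups overlapped, basal replicate 4 was the highest basal library, and the limma adjusted p was between 0.0508 and 0.151 when any 1 library other than basal replicate 4 was left out and 0.0614 with robust limma variances. Of 10 slow sarcomere genes 4 rose, 0 fell and 6 were not called: Myl2, the slow and cardiac regulatory light chain, was at 0.601, 1.39, 0.430 and 1.76 and then 7.98, 12.2 and 9.43 (2.45 ± 0.51, limma adjusted p = 0.00117), and Atp2a2, the slow calcium pump SERCA2, at 31.2, 29.8, 27.3 and 28.7 and then 48.9, 47.6 and 63.9 (0.84 ± 0.16, limma adjusted p = 0.000569). Summed over the 10 slow genes, values did not rise, at 2100 to 2682 in basal libraries and 2478, 1830 and 1620 in immobilized replicates 1, 2 and 3. None of 7 embryonic and cardiac sarcomere genes was called.

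Channels and the calcium release machinery turn a nerve impulse into contraction, and of their genes 14 of 28 and 15 of 26 fell (50% and 57.7%, beside 16.5% of all genes). Kcng4, a modifier subunit of voltage-gated potassium channels (chr8:119623854-119635680, minus strand, GRCm38), went from 58.0, 66.3, 77.4 and 86.9 in basal replicates 1 to 4 to 15.4, 6.67 and 2.04 in immobilized replicates 1 to 3. With no overlap and a log2 difference of -3.32 ± 0.39 it was the largest fall of all called genes (limma adjusted p = 8.75e-06). Lrrc38, an accessory subunit of BK potassium channels, fell from 26.5, 35.4, 30.2 and 28.6 to 4.98, 3.301 and 1.45 (-2.96 ± 0.33, limma adjusted p = 4.67e-06). The water channel Aqp4 fell (-2.22 ± 0.55, limma adjusted p = 0.00412) and the fast potassium channel Kcnc1 (-2.0 ± 0.31, limma adjusted p = 0.000109). Clcn1, the chloride channel that keeps the resting fiber stable, was at 209.9, 205, 195 and 202 and then 100.3, 82.2 and 54.4 (-1.39 ± 0.18, limma adjusted p = 1.88e-05), and the sodium channel subunit Scn4b fell (-1.95 ± 0.29, limma adjusted p = 7.6e-05). Every immobilized library was below every basal one for all 6 of these genes. Over the 28 channel genes tested 14 fell, 2 rose and 12 were not called, with a median of -0.53, and 1 rose without basal replicate 3, basal replicate 4 or immobilized replicate 3.

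Of 26 excitation-contraction and calcium handling genes, 15 fell, 3 rose and 8 were not called, with a median of -0.76. Camk2a, a calcium-dependent kinase (-1.35 ± 0.18, limma adjusted p = 3.37e-05), Hrc, a calcium-binding protein of the sarcoplasmic reticulum (-1.34 ± 0.22, limma adjusted p = 0.000156), and Jph2, which ties that store to the surface membrane (-1.28 ± 0.17, limma adjusted p = 2.13e-05), fell together. Atp2a1, the fast calcium pump SERCA1 and an abundant muscle transcript, went from 27619, 25921, 24441 and 30972 to 15069.9, 12156 and 10241 (-1.14 ± 0.22, limma adjusted p = 0.000642). The calcium buffer Pvalb fell (-1.17 ± 0.21, limma adjusted p = 0.000407). In the other direction Casq2, the slow and cardiac calsequestrin, was at 24.0, 23.3, 15.8 and 62.5 and 77.3, 35.7 and 142 (1.39 ± 0.50, limma adjusted p = 0.0370). Its groups overlapped, and its call was lost with robust limma variances (limma adjusted p = 0.0527) and without any 1 of basal replicates 1, 2 or 3 or immobilized replicates 1 or 3, with limma adjusted p of 0.0751 to 0.2396. In this list 1 gene rose without immobilized replicate 2.

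Polyamine genes held the gene with the smallest adjusted p of all. Smox, spermine oxidase, which converts spermine back to spermidine (chr2:131491496-131525922, plus strand, GRCm38), was at 258, 336, 458 and 229 in basal replicates 1 to 4 and at 57.2, 30.2 and 26.3 in immobilized replicates 1 to 3. The groups lay far apart, with a log2 difference of -3.08 ± 0.23 (limma adjusted p = 1.28e-07). Amd1, which makes the aminopropyl donor for spermidine and spermine, fell from 1430.1, 1643, 1506 and 1154 to 408, 213 and 171 (-2.53 ± 0.30, limma adjusted p = 8.05e-06). Amd2 is a near-identical copy of Amd1, so how reads were split between them is uncertain, and it fell (-3.00 ± 0.40, limma adjusted p = 2.99e-05). Srm, spermidine synthase, rose from 3.75, 5.04, 6.17 and 4.72 to 6.41, 10.02 and 21.3 (1.06 ± 0.29, limma adjusted p = 0.00835), but without immobilized replicate 3 its difference was 0.63 (limma adjusted p = 0.110). Odc1, the ornithine decarboxylase that starts the pathway, was not called (0.75 ± 0.32, limma adjusted p = 0.0695), with 169, 129, 192 and 108 in basal and 258, 196 and 294 in immobilized libraries and no overlap, but it was called when only the compared groups were fitted (limma adjusted p = 0.0211), with equal sums (1.06, limma adjusted p = 0.0173) and under quantile normalization (0.98, limma adjusted p = 0.0248). In total 4 of 13 polyamine genes fell and 2 rose (30.8% and 15.4%, beside 16.5% and 18.2% of all genes). These counts were 3 and 0 without immobilized replicate 3, and 3 and 5 with equal sums.

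Single genes of the neuromuscular junction and of activity-dependent transcription moved in both directions. Of 17 acetylcholine receptor and junction genes 5 rose and 1 fell (29.4% and 5.88%, beside 18.2% and 16.5% of all genes). The number that rose was 3 without immobilized replicate 1, immobilized replicate 3 or basal replicate 3. The receptor subunit Chrna1 rose from 5.68, 6.54, 2.95 and 12.6 to 26.8, 25.7 and 33.3 (2.03 ± 0.53, limma adjusted p = 0.00612), and Chrnb1 from 26.4, 25.8, 39.8 and 24.2 to 54.3, 63.2 and 66.8 (1.08 ± 0.18, limma adjusted p = 0.000169). The adhesion molecule Ncam1 rose by 1.30 ± 0.27 (limma adjusted p = 0.00119) and Lrp4, the receptor for agrin, fell (-1.17 ± 0.26, limma adjusted p = 0.00205). Among 33 myogenic and activity-dependent regulators 14 fell and 4 rose (42.4% and 12.1%), with a median of -0.41. With equal sums 8 fell and 5 rose, and 1 rose without immobilized replicate 3 or basal replicate 4. The transcription factor Runx1 rose by 2.58 ± 0.44 (limma adjusted p = 0.000213) and the nuclear receptor Nr4a3, which responds to contraction, fell (-2.94 ± 0.78, limma adjusted p = 0.00633). Perm1, a regulator of energy metabolism genes, fell from 213, 188, 159 and 391 to 80.6, 51.2 and 26.02 (-2.21 ± 0.39, limma adjusted p = 0.000297), and Mettl21c, a muscle lysine methyltransferase, (-2.70 ± 0.40, limma adjusted p = 6.61e-05). The myogenic factors differed from each other. Myod1 fell from 46.3, 38.1, 54.9 and 29.1 to 19.4, 15.2 and 17.2 (-1.21 ± 0.28, limma adjusted p = 0.00260), while Myog was at 4.24, 3.02, 3.03 and 2.29 and 4.12, 6.76 and 14.0 (1.04 ± 0.33, limma adjusted p = 0.0180), with overlap and a limma adjusted p of 0.182 without immobilized replicate 3, 0.0506 without basal replicate 4 and 0.0529 under quantile normalization.

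Most subunits of the proteasome, which degrades ubiquitin-tagged proteins, rose, while the ligase genes best known in atrophy, Fbxo32 and Trim63, were not called. Of 38 subunits of its 20S core and 19S cap, 31 rose and 0 fell (81.6%, beside 18.2% of all genes), with a median of 0.60, and 25 to 30 rose when any 1 immobilized library was left out. The core subunit Psma7 was at 79.0, 78.0, 95.3 and 82.4 in basal and at 174, 167 and 186 in immobilized libraries (1.06 ± 0.15, limma adjusted p = 5.04e-05). The cap ATPase Psmc4 was at 73.5, 67.0, 77.3 and 76.7 and then at 172, 135 and 155 (1.05 ± 0.18, limma adjusted p = 0.000268). Neither gene's groups overlapped. Psmb4 rose by 0.97 ± 0.15 (limma adjusted p = 0.000111) and the immunoproteasome subunit Psmb8, which immune cells also make, by 1.28 ± 0.25 (limma adjusted p = 0.000716). Of 14 activator and assembly genes 2 rose and 0 fell (14.3% and 0%, beside 18.2% and 16.5% of all genes), or 7 and 0 with equal sums.

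Among 25 atrophy ubiquitin ligases and related genes, 8 fell and 1 rose (32% and 4%, beside 16.5% and 18.2% of all genes). Their median of -0.25 became 0.05 when libraries were scaled to equal sums. With equal sums 3 fell and 4 rose, and under quantile normalization 8 fell and 4 rose. Fbxo32 was at 565, 521, 456 and 444 in basal replicates 1 to 4 and at 510.4, 523 and 604 in immobilized replicates 1 to 3. Its groups overlapped and it was not called, at 0.14 ± 0.36 with a 95% interval of -0.60 to 0.88 (limma adjusted p = 0.790). Trim63 was at 234, 243, 239 and 285 and then 318, 328 and 608. Its values did not overlap, but at 0.67 ± 0.30 it was not called (95% interval 0.05 to 1.29, limma adjusted p = 0.0843). It was called when only the compared groups were fitted (limma adjusted p = 0.0354), with libraries scaled to equal sums (0.98, limma adjusted p = 0.0229) and under quantile normalization (0.91, limma adjusted p = 0.0217). On the deposited scale the 1 gene that rose was Fbxl22, a cardiac and skeletal muscle F-box gene, at 2.72, 1.96, 3.05 and 2.19 and then 3.49, 10.5 and 24.0 (1.66 ± 0.37, limma adjusted p = 0.00188), and 1.06 without immobilized replicate 3. Trim55 (MuRF2) fell (-1.05 ± 0.13, limma adjusted p = 1.94e-05) and the deubiquitinase Usp19 (-0.66 ± 0.12, limma adjusted p = 0.000365). Of 19 ASB and Kelch adaptor genes of cullin ligases 8 fell and 2 rose (42.1% and 10.5%). The falls were led by Klhl33 (-2.38 ± 0.39, limma adjusted p = 0.000185) and Kbtbd13 (-1.85 ± 0.31, limma adjusted p = 0.000189).

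**Figure D2:**
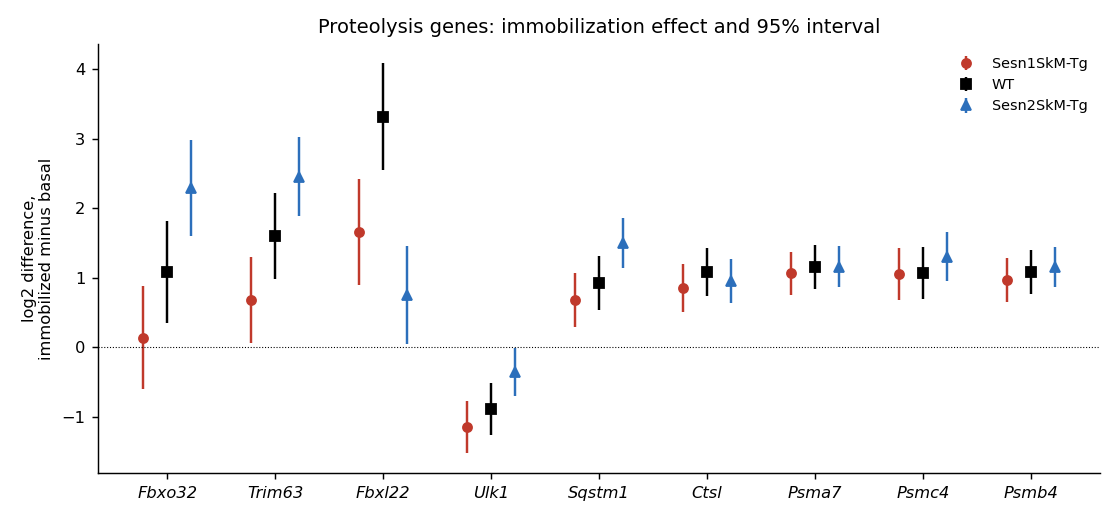
Immobilization effect (log2 difference of value + 1, immobilized minus basal) with its 95% interval for 9 genes of protein breakdown in Sesn1SkM-Tg (red circles), WT (black squares) and Sesn2SkM-Tg (blue triangles). For Fbxo32 and Trim63 the Sesn1SkM-Tg effects (0.14 and 0.67) are the lowest of the 3 genotypes, whereas the proteasome genes Psma7, Psmc4 and Psmb4 lie near 1 in each.

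On the deposited scale 15 of 43 core autophagy genes fell and 5 rose (34.9% and 11.6%, beside 16.5% and 18.2% of all genes), with a median of -0.19. With equal sums, however, 4 fell and 9 rose and the median was 0.11. The count that rose was 0 without immobilized replicate 3 and 3, 2 and 2 without basal replicates 1, 2 and 3. The initiating kinases Ulk1, from 109.6, 104, 95.7 and 119 to 55.0, 41.4 and 46.8 (-1.15 ± 0.18, limma adjusted p = 0.000116), and Ulk2 (-0.88 ± 0.20, limma adjusted p = 0.00206) fell. The cargo receptor p62, Sqstm1, was at 497, 541, 607 and 548 and then 978, 651 and 1069 (0.68 ± 0.19, limma adjusted p = 0.00782), and at 0.54 (limma adjusted p = 0.0657) without immobilized replicate 3. Among 28 lysosomal enzyme and membrane genes 15 rose and 2 fell (53.6% and 7.14%), and 11 were not called, with a median of 0.48. Without immobilized replicate 3, 9 of these lysosomal genes rose. Cathepsin L (Ctsl), a protease of atrophying fibers, rose from 85.0, 88.7, 96.3 and 86.4 to 128, 171 and 191 (0.85 ± 0.17, limma adjusted p = 0.000725). The larger rises were of Ctss (3.04 ± 0.46, limma adjusted p = 8.11e-05), a cathepsin of myeloid cells, and Grn (1.61 ± 0.22, limma adjusted p = 3.37e-05), and of the collagen-degrading Ctsk (1.80 ± 0.49, limma adjusted p = 0.00718, and 0.0547 without immobilized replicate 3). Macrophage markers, given below, rose in the same libraries, and their part in the lysosomal counts was not tested.

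Of 56 genes of the sestrin and mTORC1 network, 21 fell and 1 rose on the deposited scale (37.5% and 1.79%, beside 16.5% and 18.2% of all genes), with a median of -0.39, whereas with equal sums 6 fell and 10 rose, and 12 fell without immobilized replicate 3. The gene that rose on the deposited scale was Eif4ebp1, the translation repressor that mTORC1 phosphorylates, from 27.1, 35.3, 37.9 and 34.3 to 126, 114 and 158 (1.94 ± 0.21, limma adjusted p = 3.04e-06). Its relative Eif4ebp2 fell from 86.5, 70.1, 63.0 and 82.8 to 44.1, 44.0 and 26.5 (-0.99 ± 0.24, limma adjusted p = 0.00330), and neither gene's groups overlapped. Ddit4l (REDD2), an inhibitor of mTORC1, fell (-1.35 ± 0.44, limma adjusted p = 0.0214, and 0.141 without immobilized replicate 3 and 0.0649 with equal sums), and the AMPK subunit Prkab2 (-1.04 ± 0.24, limma adjusted p = 0.00242). Mtor itself was at 50.7, 49.9, 43.6 and 61.6 and 36.5, 42.7 and 32.0 (-0.46 ± 0.15, limma adjusted p = 0.0251), a call that was lost without immobilized replicate 1, immobilized replicate 3 or basal replicate 4 (limma adjusted p = 0.0520, 0.143 and 0.0845), under quantile normalization (-0.33, limma adjusted p = 0.0923) and with equal sums (-0.16, limma adjusted p = 0.468). Rptor fell (-0.50 ± 0.12, limma adjusted p = 0.00334), which became -0.20 (limma adjusted p = 0.248) with libraries scaled to equal sums. Of 31 insulin, IGF, AKT and FoxO genes 7 fell and 6 rose, or 3 without immobilized replicate 2, and these shares of 22.6% and 19.4% were close to those of all genes.

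Genes of energy metabolism fell more often than they rose in each pathway. Of 35 glycolysis and glycogen genes 22 fell and 4 rose (62.9% and 11.4%, beside 16.5% and 18.2% of all genes), with a median of -0.71. In this list 1 rose without immobilized replicate 2 or 3 and 2 without basal replicate 1. Gpd1, which links glycolysis to glycerol phosphate, fell from 582, 631, 772 and 629 to 171, 137 and 60.6 (-2.52 ± 0.25, limma adjusted p = 1.3e-06). Pygm, muscle glycogen phosphorylase, fell from 6371, 6779, 6684 and 7035 to 3289.8, 2699.7 and 2012 (-1.36 ± 0.18, limma adjusted p = 2.77e-05). The groups did not overlap in either, and Ldha (-1.34 ± 0.18, limma adjusted p = 3.22e-05), Phkg1 (-1.66 ± 0.19, limma adjusted p = 6.09e-06) and Pfkfb1 (-1.60 ± 0.30, limma adjusted p = 0.000451) fell as well. Of 32 citrate cycle, pyruvate and branched-chain genes 22 fell and 1 rose (68.8% and 3.12%), with a median of -0.67. Without immobilized replicate 3 or with equal sums 14 of them fell. Idh3a fell from 639.6, 628, 594 and 769.5 to 389, 297 and 192 (-1.21 ± 0.20, limma adjusted p = 0.000153) and citrate synthase Cs from 767, 735, 724 and 980.4 to 548, 381 and 318 (-0.97 ± 0.19, limma adjusted p = 0.000689). Of 31 fatty acid genes 14 fell and 1 rose (45.2% and 3.23%), and 6 fell without immobilized replicate 3 and 7 with equal sums. The mitochondrial carnitine transferase Cpt1b fell (-1.25 ± 0.24, limma adjusted p = 0.000524) and the uncoupling protein Ucp3 (-1.29 ± 0.24, limma adjusted p = 0.00047), and the lipid-sensing receptor Ppara (-1.30 ± 0.37, limma adjusted p = 0.00968, and 0.106 without immobilized replicate 3).

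Oxidative phosphorylation subunits had small and mostly negative differences. Of 81 subunits 26 fell and 3 rose (32.1%, beside 16.5% of all genes), and 78 of 81 had negative differences, with a median of -0.48. With equal sums 7 fell and 3 rose, and under quantile normalization 12 and 2. The count that fell also varied between libraries, with 42, 7 and 4 without immobilized replicates 1, 2 and 3, and 17 and 12 without basal replicates 3 and 4, and 0 rose without basal replicate 1, immobilized replicate 2 or immobilized replicate 3 and 1 without basal replicate 2. The complex I subunit Ndufs1 fell from 515, 486, 441 and 513 to 337, 245 and 194 (-0.95 ± 0.16, limma adjusted p = 0.000272), and Sdha of complex II from 991, 952, 842 and 1112 to 701, 493 and 399 (-0.91 ± 0.16, limma adjusted p = 0.000313). Of 77 mitochondrial ribosomal protein genes 11 fell and 0 rose (14.3%, below the 16.5% of all genes), with a median of -0.27 that became 0.03 with equal sums, where 1 fell and 5 rose, and 5, 3 and 7 fell without immobilized replicate 2, immobilized replicate 3 and basal replicate 4.

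Cytosolic ribosomal protein genes went the other way. Of 81 genes 50 rose and 1 fell (61.7%, beside 18.2% of all genes), with a median of 0.51, and 31 and 18 rose without immobilized replicates 2 and 3 and 76 with equal sums. Rpl3, part of the peptidyl transferase center, rose from 24.5, 50.8, 51.5 and 33.4 to 145, 242 and 294 (2.47 ± 0.33, limma adjusted p = 3.1e-05). The gene that fell was its muscle-specific paralog Rpl3l, from 395, 394, 412 and 465 to 238, 160.2 and 118 (-1.33 ± 0.22, limma adjusted p = 0.000189). The 2 paralogs thus moved in opposite directions without overlap of groups in either. Rpl10 rose by 1.34 ± 0.31 (limma adjusted p = 0.00278), and many ribosomal protein genes share reads with processed pseudogenes, so single members are uncertain.

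**Figure D3:**
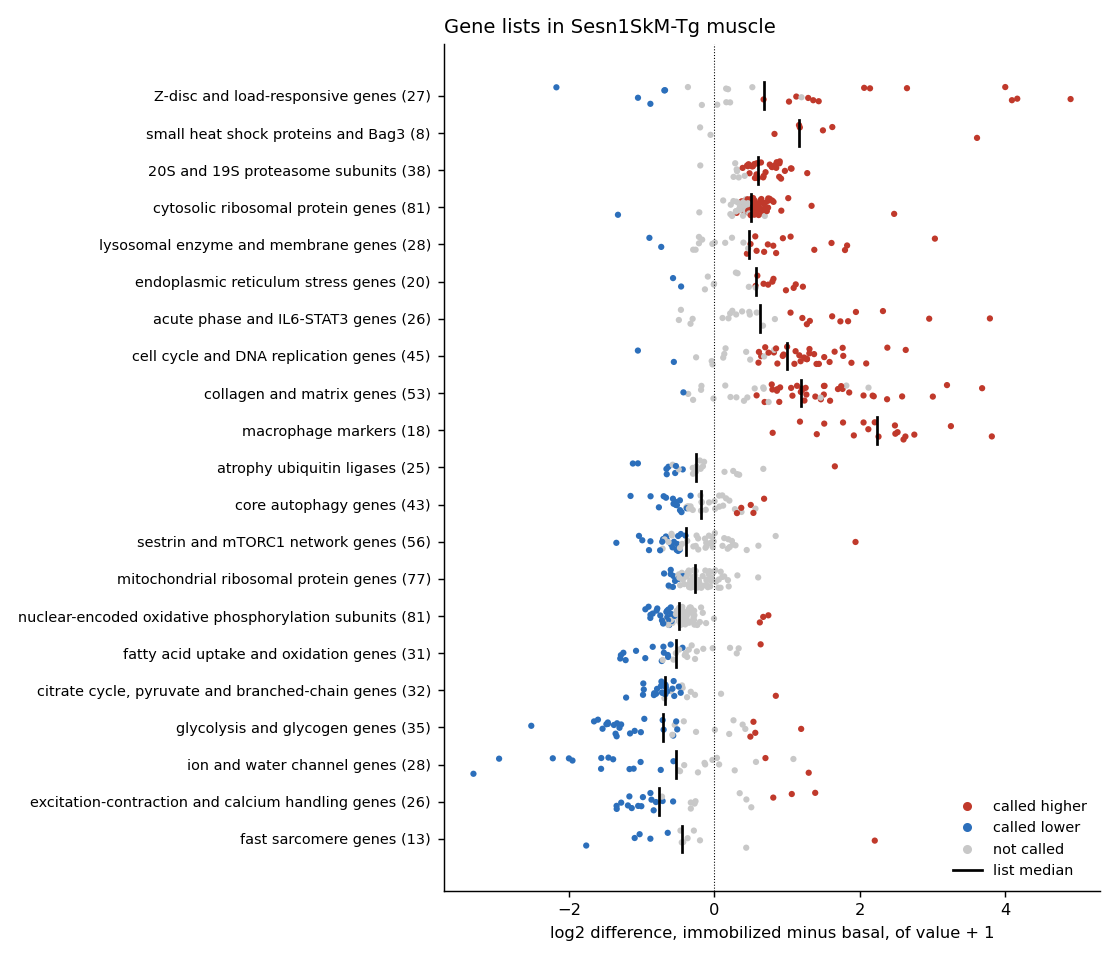
Log2 difference (immobilized minus basal, of value + 1) of every tested member of 21 gene lists in Sesn1SkM-Tg muscle, the number of members in parentheses; red points were called higher, blue lower and grey not called, and black bars are list medians. Proteasome (median 0.60) and cytosolic ribosomal protein genes (0.51) lie to the right of 0, and citrate cycle (-0.67), glycolysis (-0.71) and calcium handling genes (-0.76) to the left.

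Metal-binding and stress genes showed some of the largest rises. Mt2, a metallothionein that binds zinc and copper, was at 1.71, 4.13, 3.86 and 1.27 in basal replicates 1 to 4 and at 39.2, 102 and 149 in immobilized replicates 1 to 3. Its groups lay far apart (4.60 ± 0.66, limma adjusted p = 5.71e-05), and Mt1 rose from 4.15, 4.81, 5.94 and 4.96 to 30.9, 54.9 and 93.3 (3.22 ± 0.51, limma adjusted p = 0.000121). The heme-degrading enzyme Hmox1 rose by 2.57 ± 0.44 (limma adjusted p = 0.000232) and the copper oxidase Cp by 1.49 ± 0.26 (limma adjusted p = 0.000313). In the whole list of 15 metal and iron handling genes 5 rose and 3 fell (33.3% and 20%, beside 18.2% and 16.5% of all genes).

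The promoters of both metallothionein genes are shown because they are known to carry metal response elements, the sites of the zinc-sensing factor MTF1. They cover 250 bases before the start in RefSeq (GRCm38.p6), 5′ to 3′ on the plus strand, with matches to the core TGCGCNC or TGCACNC (either strand) in capitals. Mt1 lies at chr8:94178839-94179088 and Mt2 at chr8:94172368-94172617.
Mt1: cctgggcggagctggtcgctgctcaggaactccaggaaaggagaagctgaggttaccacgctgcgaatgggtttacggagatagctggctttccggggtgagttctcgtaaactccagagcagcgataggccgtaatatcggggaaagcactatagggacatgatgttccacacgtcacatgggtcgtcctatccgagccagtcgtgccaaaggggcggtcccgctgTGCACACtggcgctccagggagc
Mt2: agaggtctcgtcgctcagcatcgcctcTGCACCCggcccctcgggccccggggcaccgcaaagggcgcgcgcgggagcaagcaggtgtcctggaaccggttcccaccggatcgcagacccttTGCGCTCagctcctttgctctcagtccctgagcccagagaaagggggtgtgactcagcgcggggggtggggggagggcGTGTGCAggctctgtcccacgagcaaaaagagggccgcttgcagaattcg
In the bases shown Mt1 held 1 match, at -23, and Mt2 held 3, at -223, -128 and -50, counted from the RefSeq start. The GENCODE start of Mt2, at 94172664, lies downstream of the bases shown, so sites nearer to it are not counted. The core occurred in 21.4% of the 32851 promoters, searched over the 250 bases before each start, and a match is a description of letters only.

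Some genes of stress and repair lists rose. Of 23 integrated stress response and serine one-carbon genes 7 rose and 3 fell (30.4% and 13%, beside 18.2% and 16.5% of all genes). Without immobilized replicate 3, 4 of these genes rose, beside 1433 of all 13705 genes. Mthfd2, a mitochondrial folate enzyme, rose from 4.96, 4.68, 4.17 and 4.09 to 38.5, 18.9 and 35.4 (2.48 ± 0.27, limma adjusted p = 3.35e-06), Psat1 by 1.69 ± 0.36 (limma adjusted p = 0.00125) and the stress factor Atf3 by 2.03 ± 0.59 (limma adjusted p = 0.0110), although Atf3 gave 0.0810 without immobilized replicate 3. Of 20 endoplasmic reticulum stress genes 10 rose and 2 fell (50% and 10%), and 3 rose without immobilized replicate 3, while 0 or 1 fell without any 1 library. Of 21 p53 target and damage genes 8 rose and 3 fell (38.1% and 14.3%), and 4 rose without immobilized replicate 3. Eda2r, a TNF receptor family member, rose from 28.3, 31.9, 33.9 and 13.5 to 238, 145 and 308 (3.07 ± 0.39, limma adjusted p = 2.01e-05). The TWEAK receptor Tnfrsf12a rose by 1.86 ± 0.54 (limma adjusted p = 0.0111) and Gadd45a by 1.2 ± 0.42 (limma adjusted p = 0.0306), and without immobilized replicate 3 these were 1.21 and 0.71 (limma adjusted p = 0.122 and 0.248), while Gadd45a also lost its call without immobilized replicate 2 (0.0607) or basal replicate 4 (0.0893). Of 26 acute phase and IL6-STAT3 genes 11 rose and 0 fell (42.3% and 0%), and 7 rose without immobilized replicate 3. The protease inhibitor Serpina3n rose from 1.23, 3.08, 2.64 and 1.12 to 20.2, 75.0 and 39.2 (3.79 ± 0.49, limma adjusted p = 2.03e-05), lipocalin Lcn2 by 2.96 ± 0.56 (limma adjusted p = 0.000527) and the cytokine signal inhibitor Socs3 by 2.32 ± 0.60 (limma adjusted p = 0.00569, and 0.0531 without immobilized replicate 3).

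Macrophage markers rose in every member. All 18 tested markers were called higher (beside 18.2% of all genes), with a median of 2.23. Cd68, a lysosomal protein of macrophages, was at 0.372, 1.99, 1.69 and 1.16 in basal and 19.04, 35.02 and 41.1 in immobilized libraries (3.82 ± 0.40, limma adjusted p = 2.52e-06). The monocyte chemokine receptor Ccr2 rose from 1.42, 1.97, 2.00 and 1.21 to 8.79, 42.2 and 36.2 (3.26 ± 0.48, limma adjusted p = 7.48e-05), and lysozyme Lyz2 from 14.2, 28.1, 25.1 and 25.5 to 74.4, 223 and 235 (2.75 ± 0.38, limma adjusted p = 3.99e-05). No group overlapped, and replicate 1 was the lowest immobilized library in each. In bulk muscle, fewer or more cells of a type and less or more RNA per cell cannot be told apart. Summed over the list, macrophage markers were at 49.1 to 96.6 in basal libraries and at 244, 696 and 642 in immobilized replicates 1, 2 and 3. Serpinb1a, a protease inhibitor of myeloid cells, rose in the same order, from 1.196, 1.07, 3.07 and 2.11 to 22.02, 60.1 and 49.6 (3.91 ± 0.39, limma adjusted p = 1.28e-06).

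Markers of other cell types were set beside these, where 18.2% of all genes rose and 16.5% fell. Summed muscle fiber markers, which define the tissue, were at 142471 to 149359 in basal libraries and at 126696, 88857 and 86614 in immobilized replicates 1, 2 and 3, and 5 of 12 fell and 1 rose, with a median of -0.40 that became 0.04 under quantile normalization, where 1 fell and 1 rose. The count that fell was 3 and 2 without immobilized replicates 2 and 3. All 5 Schwann cell markers tested and all 6 smooth muscle and pericyte markers rose, with 3 of the latter rising without immobilized replicate 3. Among endothelial markers 7 of 11 rose (63.6%), or 4 without immobilized replicate 3, and among fibro-adipogenic progenitor markers 6 of 9 (66.7%). Summed fibro-adipogenic markers overlapped, at 431 to 826 in basal libraries and 808, 1042 and 593 in immobilized replicates 1, 2 and 3. None of 6 satellite cell markers was called, and their sums overlapped, at 38.1 to 48.4 and 38.0 to 51.0. Neutrophil markers summed to 0.85 to 3.4 in basal libraries and to 2.4, 15.3 and 67.4 in immobilized replicates 1, 2 and 3, and 3 of 6 rose, or 1 without replicate 2 and 0 without replicate 3. Of 6 adipocyte markers 2 fell, or 4 without basal replicate 4 and 0 without basal replicate 2 or 3 or any 1 immobilized library, and basal sums ranged from 5.6 to 51.1.

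**Figure D4:**
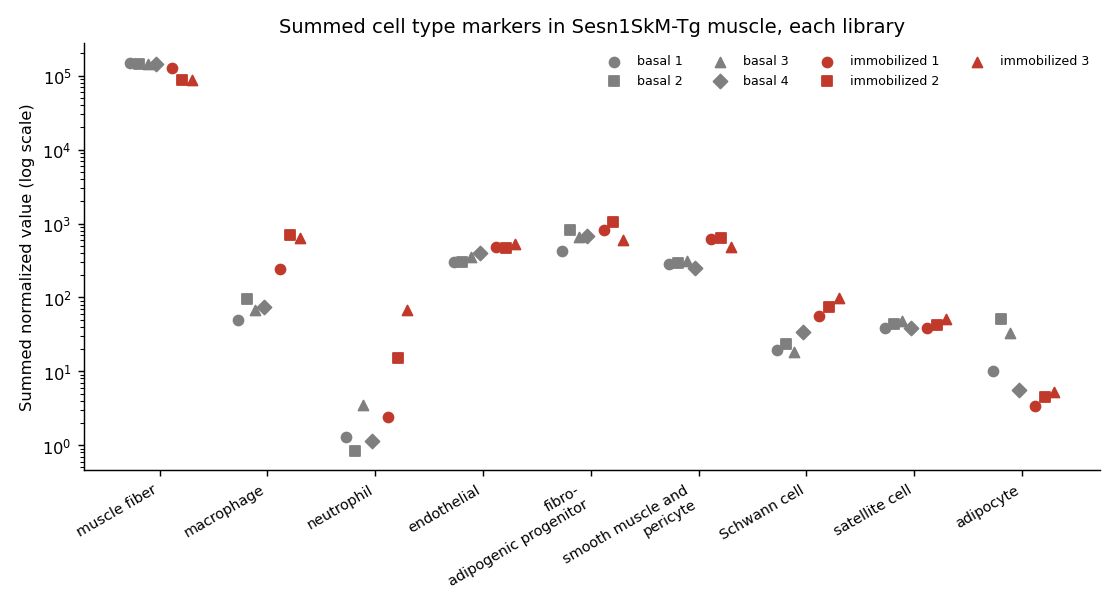
Summed normalized value (log axis) of the markers of 9 cell types in each Sesn1SkM-Tg library, basal in grey and immobilized in red, with 1 marker shape per replicate number. Macrophage sums rise from at most 96.6 in basal libraries to at least 244 in immobilized ones, whereas satellite cell sums overlap.

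Cell cycle and matrix genes rose together with these markers, and the part that the other cell types had in them was not tested. Of 45 cell cycle and DNA replication genes 33 rose and 2 fell (73.3%, beside 18.2% of all genes), with a median of 1.00, and 19 rose without immobilized replicate 3. The proliferation marker Mki67 was at 0.767, 0.549, 0.193 and 0.194 in basal and 1.83, 9.94 and 20.4 in immobilized libraries (2.63 ± 0.48, limma adjusted p = 0.000396), and topoisomerase Top2a at 0.270, 0.139, 0.245 and 0.421 and 0.866, 7.99 and 16.05 (2.38 ± 0.50, limma adjusted p = 0.00127). The tubulin-binding Stmn1 rose from 0.865, 0.847, 1.30 and 1.45 to 4.15, 8.24 and 14.0 (2.09 ± 0.26, limma adjusted p = 1.78e-05). Levels were low in basal muscle and lowest among immobilized libraries in replicate 1. Of 53 collagen and matrix genes 35 rose and 1 fell (66.0%), with a median of 1.19, and 18 rose without immobilized replicate 3. Col3a1, a fibrillar collagen, rose from 99.9, 163, 143 and 144 to 306, 678 and 1131 (2.18 ± 0.40, limma adjusted p = 0.000406), and the collagen crosslinking enzyme Lox by 3.01 ± 0.49 (limma adjusted p = 0.000172). Col1a1 was at 74.4, 92.0, 82.9 and 71.3 and 105, 244 and 795 (1.76 ± 0.59, limma adjusted p = 0.0251), and its limma adjusted p was 0.0509 to 0.237 without basal replicate 1, basal replicate 4, immobilized replicate 2 or immobilized replicate 3, with a difference of 1.00 without the last. The metalloprotease inhibitor Timp1 rose from 0.675, 0.400, 0.529 and 0.354 to 3.70, 14.4 and 95.4 (3.69 ± 0.87, limma adjusted p = 0.00287) and the matricellular Postn by 3.20 ± 0.87 (limma adjusted p = 0.00754, and 0.0737 without immobilized replicate 3). In the angiogenic list Vegfa, made by muscle fibers, fell from 173, 159, 186 and 188 to 69.4, 59.0 and 44.8 (-1.62 ± 0.18, limma adjusted p = 4.93e-06). In that list 4 of 16 genes rose (25%, beside 18.2% of all genes), or 1 without basal replicate 1 or immobilized replicate 2 and 2 without immobilized replicate 3.

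The remaining genes with the largest changes or smallest adjusted p were of mixed kinds. Ttc9 rose from 1.37, 1.40, 2.80 and 2.03 to 25.1, 21.8 and 35.2 (3.29 ± 0.37, limma adjusted p = 5.85e-06). Rbm3, a cold-inducible RNA-binding protein, had the smallest adjusted p among genes that rose, at 83.3, 87.0, 70.3 and 62.9 and then 262, 287 and 315 (1.92 ± 0.17, limma adjusted p = 4.82e-07). Its immobilized values were closely alike. Among genes that fell, Ky, whose loss causes kyphoscoliosis in mice, went from 238, 296, 215 and 288 to 74.5, 46.0 and 24.2 (-2.53 ± 0.39, limma adjusted p = 9.69e-05), and the receptor phosphatase Ptprs fell (-1.69 ± 0.15, limma adjusted p = 4.82e-07). The cell surface gene Mdga1 fell (-2.49 ± 0.22, limma adjusted p = 4.82e-07), Nrep (-2.42 ± 0.21, limma adjusted p = 4.82e-07), the long noncoding RNA 2310065F04Rik (-2.65 ± 0.23, limma adjusted p = 4.82e-07) and Odf3l2 (-2.71 ± 0.47, limma adjusted p = 0.000273). Each of these genes had groups that did not overlap.

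Whether the response of Sesn1SkM-Tg muscle differed from that of WT muscle was tested as the difference of the 2 immobilization effects. No gene was called (0 of 13705, 0%), the smallest limma adjusted p was 0.830, and 401 genes had an unadjusted p under 0.05. Without immobilized replicate 2 of Sesn1SkM-Tg 1 gene was called. The WT comparison alone called 4018 genes (29.3%, 2037 higher and 1981 lower). The smallest unadjusted p belonged to Lpin3, a phosphatidate phosphatase, which was at 1.86, 1.600, 2.31 and 1.56 and 6.53, 4.67 and 7.80 in Sesn1SkM-Tg, with effects of 1.36 here and -0.05 in WT (difference 1.40, 95% interval 0.78 to 2.03, limma adjusted p = 0.830), and to Plin4, a lipid droplet coat protein, at 199.9, 190.0, 204 and 238 and 84.8, 96.4 and 72.4, with effects of -1.29 and -0.19 (difference -1.10, 95% interval -1.61 to -0.60, limma adjusted p = 0.830). Prima1, which anchors acetylcholinesterase, differed by -1.11, 95% interval -1.63 to -0.59, the secreted energy-balance peptide gene Enho by -1.26, 95% interval -1.88 to -0.64 and the adhesion gene Amigo1 by -0.77, 95% interval -1.16 to -0.39. None of these 5 passed the adjustment, with the same limma adjusted p for each.

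The atrophy ligases were set beside WT in the same way. The effect on Fbxo32 was 0.14 in Sesn1SkM-Tg and 1.08 in WT, with a difference of -0.94, 95% interval -1.99 to 0.10, which includes 0 (limma adjusted p = 1.000), and for Trim63 (0.67 and 1.60) the difference was -0.92, 95% interval -1.80 to -0.05 (limma adjusted p = 1.000). Neither was called, and these intervals also hold differences of over 1.5 log2 units. Ctsl differed by -0.24, 95% interval -0.73 to 0.25 and Psma7 by -0.09, 95% interval -0.54 to 0.35. In numbers called, proteasome subunits gave 31 of 38 higher in Sesn1SkM-Tg and 36 in WT, with medians of 0.60 and 0.77. Collagen and matrix genes gave 35 and 17 of 53 higher, with medians of 1.19 and 0.57. Of all genes 18.2% and 14.9% were higher. These are values side by side and not a test.

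Compared with Sesn2SkM-Tg, 15 genes were called (0.109%; 0.0584% higher and 0.0511% lower), and 1407 had an unadjusted p under 0.05. The Sesn2SkM-Tg comparison alone called 4204 genes (30.7%). Collagen VI genes differed most in the positive direction. Col6a1, a microfibril chain of the muscle matrix, was at 28.3, 45.7, 34.1 and 41.7 in basal and 56.7, 55.4 and 85.1 in immobilized Sesn1SkM-Tg libraries, with effects of 0.79 here and -1.05 in Sesn2SkM-Tg, a difference of 1.84, 95% interval 1.31 to 2.36 (limma adjusted p = 0.00242), and Col6a2 differed by 1.90, 95% interval 1.23 to 2.57 (limma adjusted p = 0.0143). Fcna, a ficolin of macrophages, had effects of 1.60 and -0.11 (difference 1.72, 95% interval 1.2 to 2.23, limma adjusted p = 0.00242), and Fndc1 and the antisense RNA Foxo6os, whose reads cannot be told from those of its sense gene without strand, differed by 1.62, 95% interval 1.02 to 2.22 and 1.82, 95% interval 1.09 to 2.56 (limma adjusted p = 0.0250 and 0.0389). In the negative direction, Npc1, a lysosomal cholesterol transporter, was at 82.8, 94.5, 83.4 and 106 and 42.7, 45.5 and 59.2, with effects of -0.89 and 0.86 (difference -1.75, 95% interval -2.26 to -1.25, limma adjusted p = 0.00242). Plin4 differed by -1.63, 95% interval -2.12 to -1.15, Tmem140 by -1.68, 95% interval -2.32 to -1.04, Txnip, a regulator of glucose uptake, by -1.39, 95% interval -1.97 to -0.82 and Gm12199 by -1.29, 95% interval -1.70 to -0.89 (limma adjusted p = 0.00242, 0.0281, 0.0478 and 0.00367). When each of the 15 libraries was left out in turn, the calls of Col6a1, Fcna, Npc1, Plin4 and Gm12199 held in all 15 fits and that of Col6a2 in 14, without immobilized replicate 3 of Sesn1SkM-Tg as the exception (limma adjusted p = 0.0504). Those of Fndc1 and Tmem140 held in 9 fits, of Foxo6os in 5 and of Txnip in 3, with limma adjusted p of at most 0.136. Without immobilized replicate 1 of Sesn1SkM-Tg the number called was 231, and without immobilized replicate 2 it was 7.

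Summed macrophage markers were 57.9 to 95.7 in basal and 307 to 633 in immobilized WT libraries, and 72.1 to 90.7 and 128 to 369 in those of Sesn2SkM-Tg. For Fbxo32 and Trim63 the differences from Sesn2SkM-Tg were -2.15, 95% interval -3.16 to -1.14 and -1.78, 95% interval -2.62 to -0.94 on the log2 scale (limma adjusted p = 0.0701 for both), which did not pass 0.05. Odf3l2, among the 12 largest falls, differed by -2.82, 95% interval -4.15 to -1.49 with the same limma adjusted p of 0.0701. Cell cycle genes gave 33 of 45 higher in Sesn1SkM-Tg (19 without immobilized replicate 3), 29 in WT and 4 in Sesn2SkM-Tg. Macrophage markers gave 18, 17 and 8 of 18, with medians of 2.23, 2.19 and 0.63. Of all genes 18.2%, 14.9% and 15% were higher in the same order. These are values side by side and not a test, and 0 members of either list were called different from Sesn2SkM-Tg.

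**Figure D5:**
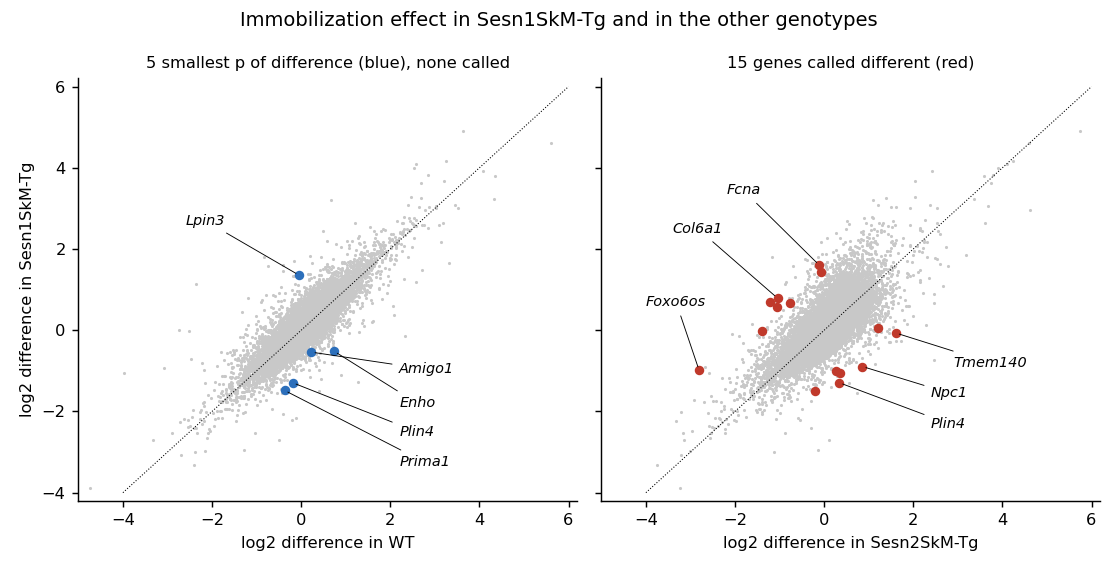
Immobilization effect (log2 difference of value + 1) of every tested gene in Sesn1SkM-Tg (vertical) against WT (left) and Sesn2SkM-Tg (right), the dotted line marking equal effects. Blue points are the 5 genes with the smallest p of the difference from WT, none called, and red points the 15 genes called different from Sesn2SkM-Tg, such as Col6a1 (difference 1.84) and Npc1 (-1.75).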

How the data were processed

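RNA-seq of tibialis anterior muscle was analysed in the 22 libraries of sequencing set 1, 7 of them from Sesn1SkM-Tg mice. Per the labels and the study's methods, the authors removed adapters with cutadapt 1.7.1, checked reads with FastQC, aligned and quantified them with RSEM 1.2.20 against GRCm38 (Ensembl 76), and used edgeR and limma. The deposited table holds 1 linear normalized expression signal per gene and library, made by the authors from the RSEM counts. How the 2 sets were scaled together is not given in the sources used here, and 20 columns of set 2 were not used. No counts were analysed, so no counting interval is given.

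From these values log2(value + 1) was computed for genes that reached a value of 1 in any library. All 22 libraries were fitted in limma 3.58.1 (R 4.3.3; lmFit, eBayes with trend) with 1 coefficient per genotype and treatment, and p-values were two-sided and Benjamini-Hochberg adjusted over 13705 genes. An exact permutation test of 3 against 4 libraries cannot go below 0.0571, so none is given for single genes. The procedure was tested on simulated data. Nothing says whether each library is a separate animal, so p-values measure the spread between these libraries. Genes of near-identical sequence are uncertain.

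Named genes were the sestrins, Csrp3, Mustn1, Smox and Kcng4, the 12 largest rises and 12 largest falls among called genes, the 5 smallest adjusted p in each direction, up to 6 members per gene list (the 4 called with the largest difference and 2 more with a known role), and for the genotype differences the 5 largest called in each direction or, with none called, the 5 smallest p. Among the genes that the rule names, 1 is not reported here. The members and gene lists were chosen with earlier results of these data known. The alternatives were other filters, pseudocounts, scalings, limma settings, thresholds, the replicate block and leaving out each library. Gene positions are from GENCODE for GRCm38, and promoter sequences from RefSeq.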

Additional observations from a re-analysis of the deposited data

Results flagged for a closer look

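The immobilization effect differed between Sesn1SkM-Tg and Sesn2SkM-Tg by limma's test of the difference for 15 genes, each difference on the log2 scale. It was lower in Sesn1SkM-Tg for Npc1 (-1.75), Tmem140 (-1.68), Plin4 (-1.63), Txnip (-1.39), Gm12199 (-1.29), the ubiquitin ligase adaptor Asb2 (-1.28) and the lysosomal transporter Slc15a4 (-1.16). It was higher for the carbonyl reductase Cbr2 (1.38), Calml4 (1.43), the matrix protein podocan Podn (1.49), Fndc1 (1.62), Fcna (1.72), Foxo6os (1.82), Col6a1 (1.84) and Col6a2 (1.90). Of these, Col6a1, Fcna, Npc1 and Plin4 kept the call under every alternative run.

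In the basal group 1 library stood far from the other 3 for 12 of the 132 named genes checked, where chance flags about 1 in 20 groups. Basal replicate 4 was far above the others for Ankrd2 (116, others up to 24.6), Cs (980, others up to 767) and Cpt1b (375, others up to 264), and far below for Lox (3.23, others from 7.24). Basal replicate 3 was above for Camk2a (500, others up to 439), Pvalb (9279, others up to 7907), Chrnb1 (39.8, others up to 26.4) and Psmb4 (134, others up to 109). Basal replicate 2 was above for Amd2 (12.9, others up to 11.3), Ctss (3.95, others up to 2.48) and Psat1 (2.44, others up to 1.00), and basal replicate 1 was below for Grn (11.3, others from 14.3).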

How the results depend on the processing

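The number of genes called in Sesn1SkM-Tg muscle was 4756, and it lay between 4391 and 5012 under the other filters, pseudocounts, scalings and limma settings. It was 1299 when a log2 difference of at least 1 was required, a stricter threshold by construction. Leaving out 1 library gave 2794 (without immobilized replicate 3) to 4979 (without immobilized replicate 1) genes. Scaling libraries to equal sums moved the share of called genes that were higher from 52.3% to 82.6%. The difference from WT gave 0 called genes in every fit with 1 exception, 1 gene without Sesn1SkM-Tg immobilized replicate 2. The difference from Sesn2SkM-Tg gave 15 called genes and 12 to 22 under the alternatives other than quantile normalization, which gave 23. Leaving out 1 library gave 7 (without Sesn1SkM-Tg immobilized replicate 2) to 231 (without Sesn1SkM-Tg immobilized replicate 1, 15 of them shared), with 9 and 8 without Sesn1SkM-Tg basal replicates 1 and 3, 9 and 8 without Sesn2SkM-Tg basal replicates 1 and 3, and 28 and 8 without Sesn2SkM-Tg immobilized replicates 2 and 3. The causes were not tested.

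Same-numbered basal and immobilized Sesn1SkM-Tg libraries deviated together with correlations of 0.154, 0.130 and 0.0763. Libraries with different numbers gave -0.200 to 0.0848. Whether the numbers mark libraries handled together was not tested, and the main fit did not use them. With the replicate block 4457 genes were called in Sesn1SkM-Tg muscle, 4312 of them among the 4756, 0 for the difference from WT and 22 for that from Sesn2SkM-Tg. Sesn1 was called with the block (-0.65, limma adjusted p = 0.0462).

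Of the 132 named genes' values under alternatives, 2296 kept direction and side of the threshold, 55 lost the call, 19 gained it and 6 changed sign. The sign changes were those of Sesn2 under quantile normalization (-0.040) and of Tmem140, neither of which was called. Tmem140 was at 0.091 under quantile normalization and 0.23 with equal sums, and between -0.25 and 0.065 when 1 library was left out. The depth behind the values is unknown, so low values such as basal Csrp3 or Cd68 have an unknown counting error.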

Other observations

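Other gene lists are given for Sesn1SkM-Tg muscle, beside 18.2% of all genes higher and 16.5% lower. Of 28 BMP, activin and myostatin pathway genes 7 rose and 4 fell, and 1 fell without immobilized replicate 3. Circadian clock genes gave 0 of 19 higher and 5 lower. Of 18 glucocorticoid response genes 2 rose and 3 fell, beside 3 and 3 in WT and 8 and 1 in Sesn2SkM-Tg, which was not a test. Of all genes 14.9% rose and 14.5% fell in WT, and 15% and 15.7% in Sesn2SkM-Tg. Without immobilized replicates 1, 2 and 3 of Sesn1SkM-Tg, 1, 3 and 0 of the glucocorticoid response genes rose and 5, 2 and 2 fell. Among 42 ribosome biogenesis genes 6 rose and 5 fell, and these were 0 and 8 without immobilized replicate 3. Of 19 genes of the V-ATPase, the lysosomal proton pump, 5 rose and 2 fell, or 1 and 1 without immobilized replicate 3. Antioxidant genes gave 7 of 29 higher and 3 lower, and dystrophin complex genes 2 of 16 higher and 4 lower. With equal sums the numbers higher and lower were 10 and 1 for the BMP list, 0 and 1 for the clock, 4 and 1 for the glucocorticoid list, 12 and 1 for ribosome biogenesis, 10 and 0 for the V-ATPase, 12 and 2 for antioxidant genes and 3 and 2 for the dystrophin complex.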
